A study of Homo sapiens with 14 samples.

Results

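The tropomyosin genes TPM1 (ENSG00000140416), TPM2 (ENSG00000198467), TPM3 (ENSG00000143549) and TPM4 (ENSG00000167460) were taken by gene name from the expression tables of KYSE510 cells, an esophageal squamous cell carcinoma line. They are 4 of the 63677 genes listed. TPM4 was chosen by its measured FPKM with each siRNA relative to siNC, so that difference is given as a description without a test. TPM1, TPM2 and TPM3 entered as its paralogs, by family name.

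The study silenced EZH2, the histone H3K27 methyltransferase of the PRC2 complex, or LAT1, the amino acid carrier encoded by SLC7A5, each with independent siRNAs. KYSE510 cells were grown in RPMI-1640 with fetal bovine serum and penicillin/streptomycin, transfected using lipofectamine RNAiMAX, and kept for 48 h before RNA extraction. The EZH2 series held siEZH2-1, siEZH2-2 and the control siNC, and the LAT1 series held siLAT1-2, siLAT1-3 and a siNC group of its own. Each of these 6 groups had 2 libraries, and both siRNAs of a series were compared with the same siNC libraries. The labels do not state whether replicate libraries are separate cultures; p-values therefore reflect library-to-library spread, which may be technical.

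Tropomyosins are coiled-coil proteins that polymerise head to tail along actin filaments and govern which other proteins reach the filament. In muscle they work with troponin to control contraction. In other cells TPM3 and TPM4 give mainly short, cytoplasmic forms, while TPM1 and TPM2 also give long forms found in stress fibres, and carcinoma cells often carry little of the long forms. Each gene makes several isoforms through alternative promoters and exons, and the deposited values merge them into 1 value per gene.

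The start windows of the genes that carry the comparison are shown because the TPM4 level differed between groups and the levels of the abundant paralog TPM3 and of TPM1 moved little or in other ways. Each runs over 300 bases on the gene's own strand, 250 bases before to 50 bases after an annotated start, and comes from RefSeq on GRCh38.p14. TPM4 window 1 lies at chr19:16067288-16067587 and TPM4 window 2 at chr19:16076245-16076544, both on the plus strand. TPM3 window 2 lies at chr1:154183169-154183468 on the minus strand and the TPM1 window at chr15:63048239-63048538 on the plus strand. Capitals mark a CArG box, the site form bound by the transcription factor SRF, which drives many actin cytoskeleton genes.
TPM4 window 1: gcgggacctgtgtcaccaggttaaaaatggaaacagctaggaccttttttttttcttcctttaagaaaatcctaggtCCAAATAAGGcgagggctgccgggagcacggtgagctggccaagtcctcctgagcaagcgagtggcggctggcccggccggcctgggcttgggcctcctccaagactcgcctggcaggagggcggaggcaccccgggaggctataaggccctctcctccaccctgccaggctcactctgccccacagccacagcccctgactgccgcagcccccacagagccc
TPM4 window 2: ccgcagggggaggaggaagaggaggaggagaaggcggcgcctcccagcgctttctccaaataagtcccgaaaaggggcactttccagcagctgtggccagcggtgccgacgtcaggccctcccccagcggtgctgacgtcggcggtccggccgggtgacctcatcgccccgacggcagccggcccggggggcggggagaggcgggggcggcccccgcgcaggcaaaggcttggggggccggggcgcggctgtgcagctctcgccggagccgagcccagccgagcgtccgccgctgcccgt
TPM3 window 2: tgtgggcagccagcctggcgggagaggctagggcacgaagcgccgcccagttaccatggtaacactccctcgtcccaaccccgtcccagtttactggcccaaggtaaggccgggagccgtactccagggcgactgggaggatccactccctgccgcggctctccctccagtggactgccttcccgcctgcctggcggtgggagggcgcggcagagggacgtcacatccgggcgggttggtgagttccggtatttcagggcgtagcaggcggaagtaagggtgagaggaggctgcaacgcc
TPM1 window 1: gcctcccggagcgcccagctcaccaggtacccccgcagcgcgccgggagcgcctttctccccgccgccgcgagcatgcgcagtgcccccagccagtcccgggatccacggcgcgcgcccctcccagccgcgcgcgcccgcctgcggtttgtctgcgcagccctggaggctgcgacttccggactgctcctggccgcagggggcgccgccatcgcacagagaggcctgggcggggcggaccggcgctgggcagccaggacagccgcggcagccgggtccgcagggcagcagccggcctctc

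All 4 genes matched the RefSeq table, with 8 windows between them. The CArG box, searched on both strands, was found in 1 of the 8 windows, TPM4 window 1, where its first base lies 173 bases before the annotated start. Of all 35116 windows in the table, 454 held it, or 1.29%. TATAAA was in 0 of the 8 tropomyosin windows and in 11.5% of all windows, and TGACGTCA, the full cyclic AMP response element, was in 0 of the 8 and in 1.85% of all. The windows did not overlap between genes. A match describes letters only, and gene-level values do not say which start was in use.

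The 12 libraries held 11465 to 11794 genes at 1 FPKM or more. FPKM scales reads or fragments by gene length and library depth. Levels of different genes may be compared in it only as far as the gene lengths used hold. Those lengths are not given in the sources used here, so shares and ratios between genes are approximate. By the depth recovered from the values, 1 FPKM stood for about 21.2 to 27.4 reads per kilobase of gene in the EZH2 series and 12.7 to 17.1 in the LAT1 series. EZH2 was at 40.6% of its siNC level with siEZH2-1 and 36.4% with siEZH2-2, and SLC7A5 at 20.3% with siLAT1-2 and 26.0% with siLAT1-3. In the EZH2 series SLC7A5 was also lower, at 24.9% of its siNC level with siEZH2-1 and 78.6% with siEZH2-2. EZH2 was at 98.4% with siLAT1-2 and 93.8% with siLAT1-3. All 10 squamous epithelial markers averaged at least 1 FPKM in both series, led by KRT5, a basal keratin. The summed level of 8 fibroblast markers stayed between 0.97 and 2.56 FPKM, of 5 endothelial markers between 0.06 and 1.31 FPKM, and of 6 immune markers between 0.22 and 0.75 FPKM. Of 7 smooth muscle markers, only SMTN averaged 1 FPKM or more, and their sum was 3.23 to 3.88 FPKM with the EZH2 siRNAs, against 2.59 and 2.93 FPKM with siNC. SMTN was higher by 0.29 there (adjusted p = 0.0464 in limma). With LAT1 silenced the sum was 3.79 to 4.22 FPKM for siLAT1-2 and 3.20 to 3.36 FPKM for siLAT1-3, against 3.19 and 3.61 FPKM for siNC. None of the 10 squamous markers was called higher, while 3 fell with EZH2 silenced, against 13.0% of all genes, and 6 with LAT1 silenced, against 15.3%. The part of these markers in the tropomyosin results was not tested.

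TPM4, which gives mainly short cytoplasmic forms, stood well above its siNC level with every siRNA, in a value that merges its isoforms. In the EZH2 series the siEZH2-1 libraries held 99.2 and 98.0 FPKM and the siEZH2-2 libraries 90.9 and 91.7 FPKM, against 23.7 FPKM in both siNC libraries. The LAT1 series had 61.3 and 61.4 FPKM with siLAT1-2 and 59.3 and 57.8 FPKM with siLAT1-3, against 19.3 and 18.2 FPKM with siNC. All 8 siRNA libraries lay far above the siNC libraries of their table, with no overlap. The ratio of group means to siNC was 4.16 for siEZH2-1, 3.86 for siEZH2-2, 3.27 for siLAT1-2 and 3.12 for siLAT1-3. Since the siRNAs of a series share their siNC libraries, a change made by siNC itself and one made by the siRNAs cannot be told apart.

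**Figure D1:**
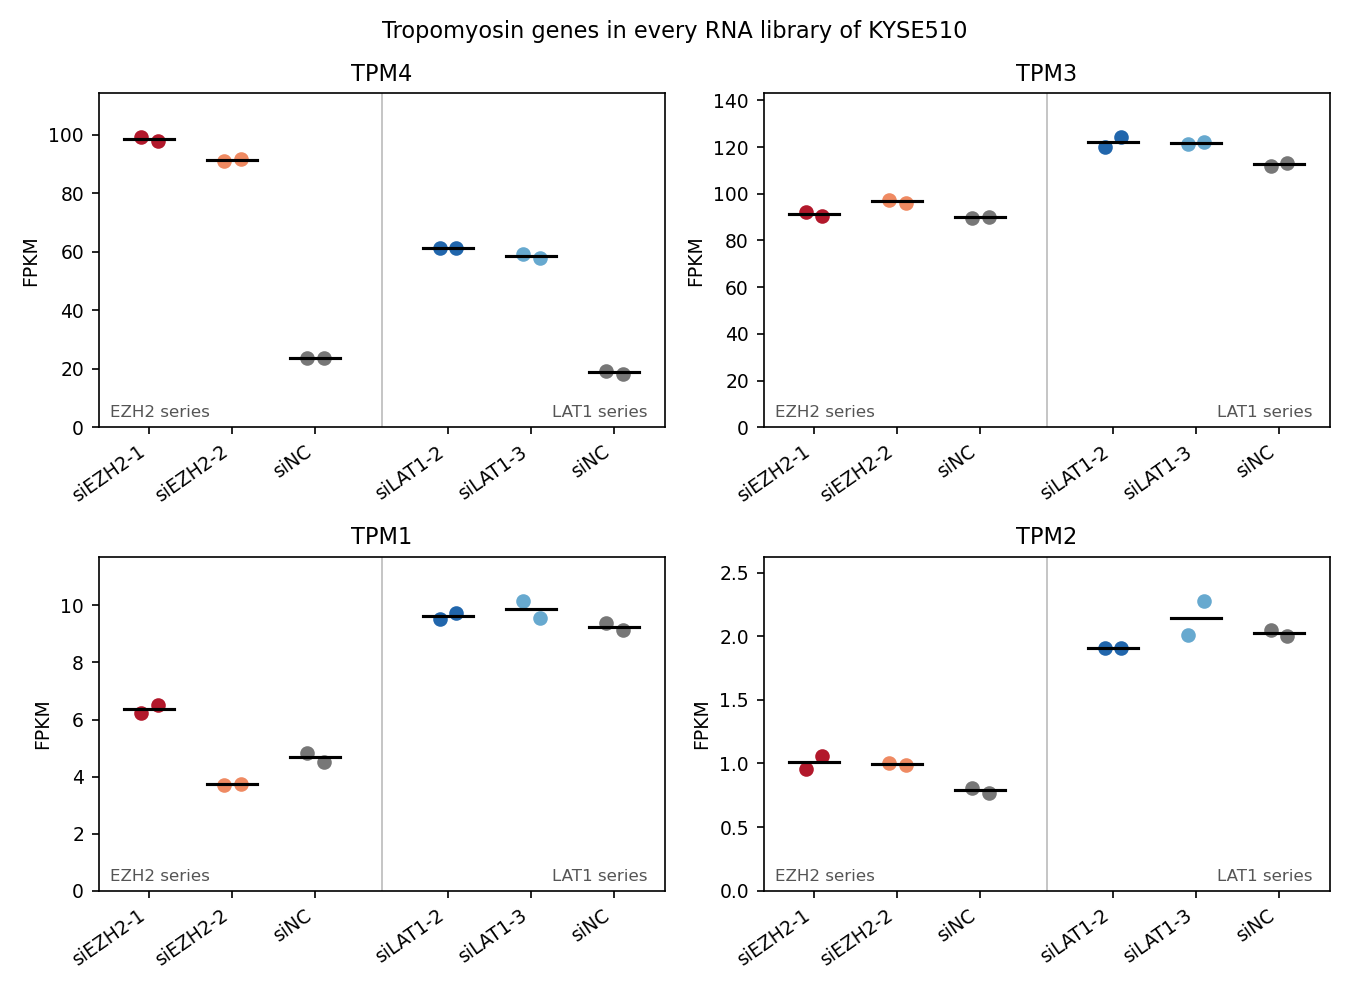
FPKM of each tropomyosin gene (linear axis starting at 0, own scale per panel) in the 12 RNA libraries, with points for libraries and bars for the mean of the 2 libraries of a group. TPM4 is at 57.8 FPKM or more in every siRNA library and at 23.7 FPKM or less in every siNC library, while TPM3 stays between 89.7 and 124 FPKM.

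The siRNAs to the same target gave TPM4 values near each other, which the choice of a gene raised by all 4 siRNAs favours. Their libraries did not overlap: siEZH2-1 lay above siEZH2-2, and siLAT1-2 above siLAT1-3. The log2 difference in FPKM + 1, averaged over both siRNAs, was 1.96 for EZH2 and 1.62 for LAT1. The gene ranked 2 of 11585 genes by that value in the EZH2 series and 4 of 11678 in the LAT1 series. Such high ranks follow from how TPM4 was chosen. siEZH2-2 minus siEZH2-1 was -0.11 (95% interval -0.22 to 0.00), with an adjusted p of 0.161 in limma. siLAT1-3 minus siLAT1-2 was -0.07 (95% interval -0.15 to 0.02), with an adjusted p of 0.224 in limma. Neither difference passed the 0.05 threshold, and the intervals reach to -0.22 and -0.15, so equal values are not shown.

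Among 10803 genes tested in both tables, 7 had at least 3 times their siNC level with all 4 siRNAs and 37 had at least 2 times. TPM4 was chosen for its rise with all 4 siRNAs, so its place among the 7 was fixed by that choice. TPM4 had the lowest smallest fold of the 7, at 3.12, and the next gene outside, ZW10, had a smallest fold of 2.94. The other 6 inside were RPL39P36, ZNF616, OGFR, RGS19, HABP4 and ZNF845, chosen for naming after their values were seen, with smallest folds of 3.21 to 6.26. None of these 6 belongs to the tropomyosin family or to the lists of actin filament genes used here.

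TPM3 was the most abundant tropomyosin gene in the siNC libraries and differed from siNC by far less than TPM4 did. It encodes short cytoplasmic tropomyosins as well as a slow-muscle form. Its level was 92.2 and 90.4 FPKM under siEZH2-1 and 97.4 and 96.2 FPKM under siEZH2-2, against 89.7 and 90.1 FPKM with siNC. Both siRNA groups lay above siNC without overlap, by less than 10 FPKM. With LAT1 silenced it had 120.0 and 124 FPKM with siLAT1-2 and 121 and 122 FPKM with siLAT1-3, against 112 and 113 FPKM with siNC. Here too, the siRNA libraries were all above the siNC libraries.

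The test called the TPM3 difference in the LAT1 series only. It was 0.11 ± 0.0241 (log2, SE) for the mean of both siRNAs, with a 95% interval of 0.06 to 0.17 and an adjusted p of 0.0115 in limma. It was 0.12 with siLAT1-2 and 0.11 with siLAT1-3, with adjusted p of 0.0192 and 0.0235 in limma. The siLAT1-2 call was lost without 3 of the 6 libraries, its own second one and both of siNC (0.0796 to 0.102), and the siLAT1-3 call without 4, its own and those of siNC (0.0714 to 0.119). Both were lost without the minimum level (0.0607 and 0.0703). siLAT1-3 minus siLAT1-2 gave an interval of -0.07 to 0.06. The call of the mean rested on both siNC libraries: without the first the adjusted p was 0.0883, and without the second 0.0679. In the EZH2 series the mean difference was 0.07 (95% interval -0.03 to 0.16), with an adjusted p of 0.259 in limma. Whether the 2 series differ was not tested, since their tables were normalized separately.

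TPM1, the source of long stress-fibre and muscle tropomyosins, was a low gene that moved in opposite ways with the 2 EZH2 siRNAs. The siEZH2-1 libraries had 6.22 and 6.50 FPKM and the siEZH2-2 libraries 3.72 and 3.74 FPKM, against 4.83 and 4.53 FPKM with siNC. The siEZH2-1 libraries were the highest of the table and the siEZH2-2 libraries the lowest, with siNC between and no overlap. The LAT1 table gave 9.53 and 9.74 FPKM with siLAT1-2 and 10.2 and 9.57 FPKM with siLAT1-3, against 9.39 and 9.13 FPKM with siNC. There the siRNA libraries were all slightly higher than siNC, and the gene did not pass the test.

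siEZH2-2 minus siEZH2-1 was -0.64 ± 0.0683 (log2, SE) for TPM1, with a 95% interval of -0.80 to -0.47 and an adjusted p of 0.00227 in limma. TPM1 rose by 0.37 with siEZH2-1 (95% interval 0.21 to 0.54, adjusted p = 0.0105 in limma) and fell by 0.26 with siEZH2-2 (95% interval -0.43 to -0.10, adjusted p = 0.0337 in limma). The mean of both was 0.06, with an adjusted p of 0.512 in limma. EZH2 itself stood at 6.94 ± 0.431 FPKM with siEZH2-1 and 6.22 ± 0.255 FPKM under siEZH2-2, against 17.1 ± 0.0354 FPKM with siNC (SD, n = 2), and its part in the difference was not tested. The call of siEZH2-2 against siNC was lost whichever of the 6 libraries was left out, with adjusted p of 0.0654 to 0.181 in limma. That of siEZH2-1 was lost without its second library (0.0805) and without the second siNC library (0.0562). The difference between the siRNAs kept its call each time, at adjusted p of 0.00523 to 0.024. For LAT1 the mean difference was 0.07, with an adjusted p of 0.243 in limma.

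TPM2, which encodes long tropomyosins of smooth and striated muscle and of stress fibres, was the lowest of the family. Its EZH2 series values were 0.96 and 1.06 FPKM under siEZH2-1 and 1.00 and 0.99 FPKM under siEZH2-2, against 0.81 and 0.77 FPKM with siNC. All siRNA libraries were above siNC there. The LAT1 series values were 1.91 and 1.91 FPKM with siLAT1-2 and 2.01 and 2.28 FPKM with siLAT1-3, against 2.05 and 2.00 FPKM with siNC. There siLAT1-2 was below siNC and siLAT1-3 overlapped it. Its mean in the EZH2 series missed the minimum of 1 FPKM, and without that minimum the difference was 0.16 (95% interval -0.04 to 0.36), with an adjusted p of 0.34 in limma. In the other series the difference was -0.00 (95% interval -0.17 to 0.17) with an adjusted p of 0.997 in limma.

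**Figure D2:**
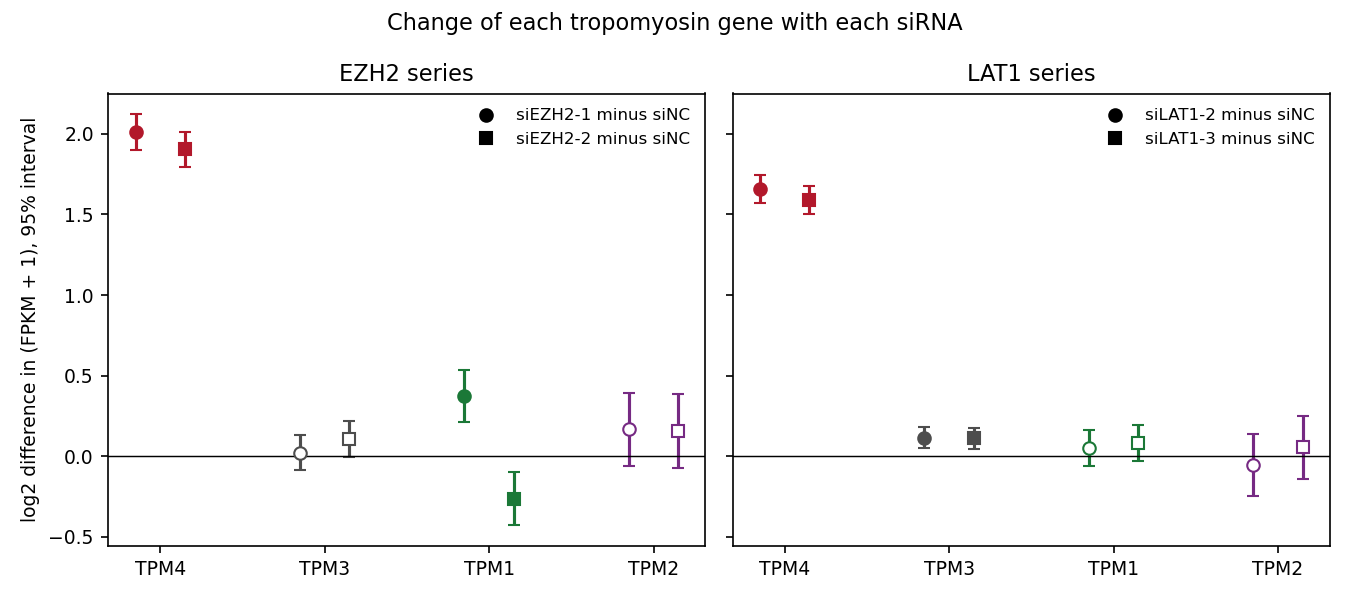
Log2 difference in FPKM + 1 between each siRNA (circle, first siRNA of the series; square, second) and siNC, with 95% intervals from limma. Filled symbols have an adjusted p under 0.05 and open ones do not, except that TPM4 is drawn filled without a test. The TPM4 intervals describe the values that chose the gene and are not a test. TPM2 in the EZH2 series was fitted without the minimum level. TPM4 lies between 1.59 and 2.01, and no other gene exceeds 0.37.

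Of the 3 members that passed the minimum level in the EZH2 series, 2 are paralogs, and 0 of these was called for the mean of both siRNAs, against 30.0% of all genes tested, 17.0% higher and 13.0% lower. For siEZH2-1 and for siEZH2-2, 1 of 2 paralogs was called each time, TPM1, against 27.2% and 24.8% of all genes. Between siEZH2-2 and siEZH2-1, 1 of 3 members was called, TPM1 again, against 16.3% of all genes. For LAT1, 1 of 3 paralogs, TPM3, was called for the mean of both siRNAs, against 34.5% of all genes, 19.3% higher and 15.3% lower. TPM3 was also the only paralog called with siLAT1-2 and with siLAT1-3, against 32.5% and 31.4% of all genes. Between siLAT1-3 and siLAT1-2, 0 of 4 members was called, against 25.5% of all genes. A count of 0 or 1 among so few genes, against such shares, is not a result about the family.

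The make-up of tropomyosin RNA followed TPM4. The shares, and the sums and ratios that include TPM4, hold the values that chose this gene, so they are a description. TPM4 took 50.0% of the summed FPKM of the 4 genes with siEZH2-1 and 47.4% with siEZH2-2, against 19.9% with siNC. It took 31.5% with siLAT1-2 and 30.5% with siLAT1-3, against 13.2% with siNC. The share of TPM3 was lower in each siRNA group, at 46.2% with siEZH2-1 and 50.2% with siEZH2-2, against 75.5% with siNC, and at 62.6% with siLAT1-2 and 63.3% with siLAT1-3, against 79.0% with siNC. Its level was not lower, so its smaller share came with the larger sum.

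The sum of the 4 genes was 193 to 199 FPKM in siEZH2 libraries, against 119 FPKM in both siNC libraries. For LAT1 it was 192 to 197 FPKM in siLAT1 libraries, against 142 and 143 FPKM in siNC libraries. Without TPM4 the sum was 98.0 to 102 FPKM in siEZH2 libraries, against 95.3 and 95.4 FPKM with siNC, and 131 to 136 FPKM in siLAT1 libraries, against 124 FPKM in both siNC libraries. No paralog fell by an amount that offset TPM4. The ratio of TPM4 to TPM3 was 1.08 in both siEZH2-1 libraries and 0.933 and 0.953 with siEZH2-2, against 0.264 and 0.263 with siNC. It was 0.511 and 0.494 with siLAT1-2 and 0.489 and 0.473 with siLAT1-3, against 0.172 and 0.161 with siNC. By these values TPM4 passed TPM3 only in the siEZH2-1 libraries. That crossing is approximate, since ratios near 1 depend on gene lengths that are not given in the sources used here.

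**Figure D3:**
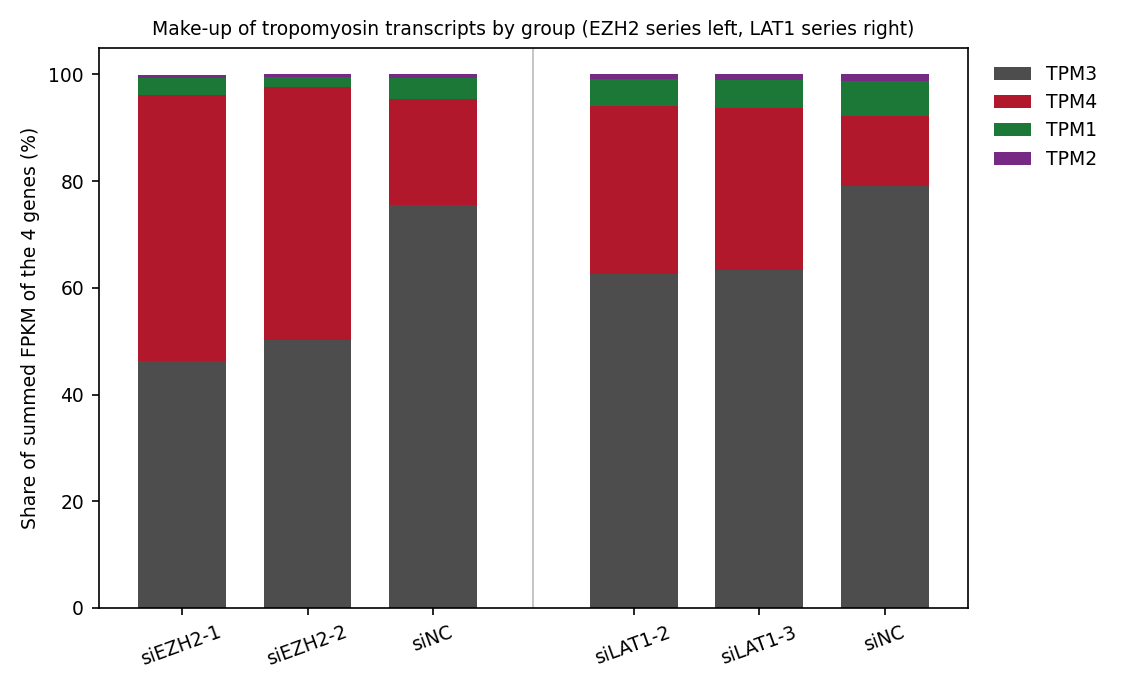
Mean share of each gene in the summed FPKM of the 4 tropomyosin genes (%), by group, 2 libraries each. TPM4 takes 30.5% to 50.0% with the siRNAs and 13.2% to 19.9% with siNC, and TPM1 and TPM2 are the thin upper segments.

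Within each siNC group the order of the levels was TPM3, TPM4, TPM1 and TPM2, and no neighbours in that order overlapped. The order was the same in every siRNA group except siEZH2-1, where TPM4 led TPM3 by less than 10 FPKM, a lead that depends on the gene lengths used. TPM1 and TPM2 were higher in the LAT1 series than in the EZH2 series, at 9.26 ± 0.184 against 4.68 ± 0.212 FPKM and 2.02 ± 0.0354 against 0.79 ± 0.0283 FPKM in siNC cells (SD, n = 2). The tables were normalized separately, and whether they share an annotation is not given in the sources used here, so that step carries no test.

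Pseudogenes of the family were checked because near-identical copies can take or lend reads. TPM3P9 was the only related locus to reach 1 FPKM. It had 6.66 and 6.80 FPKM with siLAT1-2 and 7.30 and 7.76 FPKM with siLAT1-3, against 6.19 and 6.25 FPKM with siNC, and stayed at 0.39 to 0.69 FPKM in the EZH2 series. Its reads and those of TPM3 may be shared, so TPM3 values are uncertain to that extent. TPM4P1 stayed at or under 0.31 FPKM in all 12 libraries. How shared reads were assigned is not given in the sources used here, and their part in the TPM4 values was not tested. The remaining TPM3 pseudogenes were at 0 to 0.06 FPKM.

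The one tested neighbour of TPM4 did not pass the test. In the RefSeq gene order of GRCh38.p14, TPM4 lies between OR10H4, an olfactory receptor gene at or near 0 here, and RAB8A, a small GTPase of vesicle transport. RAB8A differed by -0.04 with EZH2 silencing and -0.12 with LAT1 silencing, with adjusted p of 0.624 and 0.319 in limma. TLN2 and LACTB beside TPM1 were not called, and NUP210L and CFAP141 beside TPM3 were too low to test. Beside TPM2, TLN1 was not called, and CA9, a carbonic anhydrase known for its response to low oxygen, fell by 0.66 in the LAT1 series, with an adjusted p of 0.0171 in limma.

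The genes with the pattern most like that of TPM4 were likewise low in siNC and high with all siRNAs. Likeness was Pearson's r over the 12 libraries, after centring each table on its mean, among 6626 genes with at least 5 FPKM on average in both tables. These points share their siNC libraries within a table, and for TPM4 they fall into a siNC cluster and a siRNA cluster, so r measures mainly that step. TOMM22, a receptor of the mitochondrial import machinery, and POLR2D, an RNA polymerase II subunit, had r = 0.997. OGFR, the opioid growth factor receptor, and KIF1C, a kinesin motor, had 0.996, and ZDHHC16, a palmitoyltransferase, had 0.995. Over all genes the median r with TPM4 was 0.03 and the lowest -0.98.

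The size of the step differed among these genes. OGFR came nearest to TPM4, with 23.0 ± 2.38 FPKM with siEZH2-1 and 22.3 ± 1.48 FPKM under siEZH2-2, against 4.83 ± 0.339 FPKM with siNC, and 18.0 ± 0.898 and 17.8 ± 0.672 FPKM with siLAT1-2 and siLAT1-3, against 4.48 ± 0.163 FPKM with siNC (SD, n = 2). KIF1C moved least, with 0.83 to 0.99 log2 units. Other genes were most like the paralogs, whose own changes were small beside that of TPM4, and r does not measure the size of a change. TPM1 was most like AARS, the alanyl-tRNA synthetase (r = 0.958), and SMS, spermine synthase (0.957), which also stood higher with siEZH2-1 and lower with siEZH2-2 than with siNC. TPM2 was most like PEX19, a peroxisome import factor (0.917), and MRPS25, a mitochondrial ribosomal protein (0.911). TPM3 was most like WBP11, a splicing factor partner, and AIMP1, a scaffold of the tRNA synthetase complex (both 0.957). WBP11 itself rose with all 4 siRNAs. Its log2 difference was 0.39 with siEZH2-1, 0.93 with siEZH2-2, 0.91 with siLAT1-2 and 0.90 with siLAT1-3, against 0.02 to 0.12 for TPM3.

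**Figure D4:**
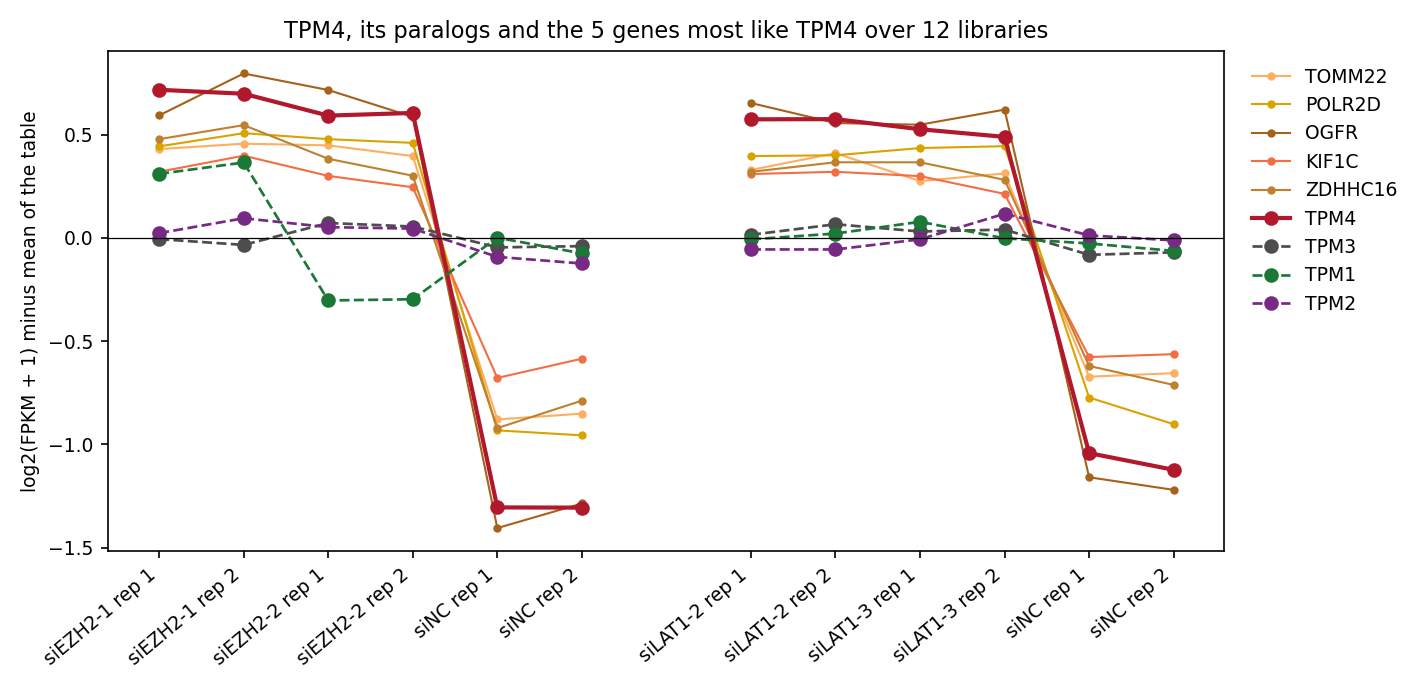
Log2(FPKM + 1) minus the mean of the 6 libraries of the table, for the tropomyosin genes (thick or dashed lines) and the 5 genes most like TPM4 (thin lines), over 12 libraries. TPM4 and its 5 likest genes lie above 0 in every siRNA library and below 0 in every siNC library, whereas TPM1 splits the EZH2 siRNAs.

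Proteins that work on the same filaments were read from 10 lists, described by counts beside all genes, whose median log2 difference was 0.03 for EZH2 and 0.01 for LAT1. Of all genes tested, 17.0% rose and 13.0% fell for EZH2, and 19.3% rose and 15.3% fell for LAT1. Calls among all genes also fell under other settings in the EZH2 series. The 3481 calls became 1360 without the first siNC library and 2050 without the second. They became 1820 without the minimum level and 1153 with both siRNAs pooled. Smaller counts and lost calls in the lists are to be read beside such totals. ACTB and ACTG1, the cytoplasmic actins on which these tropomyosins lie, were not called for the mean of both EZH2 siRNAs, although ACTB was 0.35 with siEZH2-1 (adjusted p = 0.0103 in limma) and -0.04 with siEZH2-2. With LAT1 silenced ACTB rose by 0.10 and ACTG1 fell by 0.12, with adjusted p of 0.0152 and 0.00719 in limma, and the ACTG1 value was 0.037 with an adjusted p of 0.563 after quantile normalization. The ACTB call was lost without either siNC library, with adjusted p of 0.105 and 0.13. TMOD3, which caps the pointed end of tropomyosin-coated filaments, was the only tropomodulin tested. It rose by 0.16 in the LAT1 series (adjusted p = 0.0172 in limma). The rise was 0.23 with siLAT1-2 and 0.10 with siLAT1-3 (adjusted p = 0.00819 and 0.152 in limma). The call of the mean was lost without the second siNC library (0.128), without the minimum level (0.0665) and with both siRNAs pooled (0.167).

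Of the calponins, transgelins and caldesmon, which bind actin beside tropomyosin, 0 rose and 2 of 3 tested fell with EZH2 silenced, and 0 rose and 2 of 4 fell with LAT1 silenced, a count that became 1 without the second siNC library or under quantile normalization and 0 with both siRNAs pooled. CALD1, caldesmon, fell by 0.41 and CNN2 by 0.28 in the EZH2 series, with adjusted p of 0.00692 and 0.00547 in limma, and both calls were lost without the first siNC library (0.0592 and 0.0581). CNN2 stood at 87.1 ± 2.34 FPKM with siEZH2-1 and 44.1 ± 0.29 FPKM under siEZH2-2, against 75.3 ± 1.98 FPKM with siNC (SD, n = 2), so its mean joins opposite directions. CNN3 fell by 0.28 and TAGLN2 by 0.13 in the LAT1 series, with adjusted p of 0.00235 and 0.00493 in limma. CNN3 lost its call when pooled (0.196), and TAGLN2 under quantile normalization (0.115), when pooled (0.17) and without the second siNC library (0.0581). 

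Of the myosin II list, 3 rose and 1 fell of 17 for EZH2, and 3 rose and 3 fell of 18 for LAT1. The EZH2 higher count became 0 without the first siNC library, and the LAT1 lower count became 1 without the first siNC library, 1 without the minimum level and 0 when pooled. MYL6, a myosin essential light chain, rose by 0.41 in the EZH2 series (adjusted p = 0.00723 in limma), a call lost without the first siNC library (0.0586). MYL12A, a regulatory light chain, fell by 0.35 there (adjusted p = 0.00553 in limma). RHOB, a GTPase upstream of actomyosin, rose by 0.55 in the LAT1 series (adjusted p = 4.55e-05 in limma). MYL12B, another regulatory light chain, fell by 0.32 there (adjusted p = 0.00022 in limma), by 0.64 with siLAT1-2 and by less than 0.01 with siLAT1-3, and its adjusted p was 0.39 when pooled.

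More filament crosslinkers fell than rose in both series. In the EZH2 series 0 rose and 9 of 11 tested fell, with a median of -0.25, and in the LAT1 series 2 rose and 6 fell, with a median of -0.14. ANLN, the cytokinetic scaffold anillin, fell by 0.86 and FLNA, filamin A, by 0.17 in the EZH2 series, with adjusted p of 0.00138 and 0.0457 in limma. The FLNA call was lost without 5 of the 6 libraries in turn (0.1 to 0.238), under no minimum level (0.14) and when pooled (0.261). PLS1, a plastin, fell by 0.29 and SPTAN1, a spectrin, rose by 0.23 in the LAT1 series, with adjusted p of 0.00184 and 0.00375 in limma. The 9 calls became 3 without either siNC library, 4 or 5 without either siEZH2-1 library, 3 without the minimum level and 0 with both siRNAs pooled as 1 group, where ANLN had an adjusted p of 0.126. Among all genes the 3481 calls became 1360 and 2050 without the siNC libraries in turn, 1820 without the minimum level and 1153 when pooled. The 6 lower calls of the LAT1 series became 3 without the second siNC library and 3 when pooled.

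Of the focal adhesion and stress fibre list, 0 rose and 4 of 19 fell with EZH2 silenced and 0 rose and 8 of 19 fell with LAT1 silenced. VCL, vinculin, which links integrin sites to actin, had 32.5 and 31.0 FPKM with siEZH2-1 and 38.6 and 40.7 FPKM under siEZH2-2, against 58.9 and 56.1 FPKM with siNC. It had 28.0 and 27.4 FPKM with siLAT1-2 and 50.6 and 51.7 FPKM with siLAT1-3, against 62.2 and 62.8 FPKM with siNC. All siRNA libraries were below siNC, and the mean fell by 0.68 and by 0.72 (adjusted p = 0.000395 and 1.29e-05 in limma). The smallest called falls were TES, a focal adhesion LIM protein, at -0.43 in the EZH2 series (adjusted p = 0.00413 in limma; 0.0797 when pooled) and ZYX, zyxin, at -0.18 in the LAT1 series (adjusted p = 0.0145 in limma). The ZYX call was lost without either siNC library (0.0932 and 0.0814). The 4 and 8 calls became 2 and 1 with both siRNAs pooled, and VCL in the LAT1 series then had an adjusted p of 0.179.

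Of the cofilin and gelsolin list, 3 rose and 2 fell of 17 for EZH2 and 4 rose and 5 fell of 18 for LAT1. The EZH2 lower count became 1 without either siNC library or the second of siEZH2-1, the LAT1 lower count 3 without either siNC library, and the LAT1 higher count 2 without the second. Cofilin cuts filaments that tropomyosin can shield. CFL2, a cofilin, fell by 0.93 in the EZH2 series (adjusted p = 0.000286 in limma), by 1.52 with siEZH2-2 and by 0.34 with siEZH2-1, and with both pooled its adjusted p was 0.176. TESK1, a kinase that acts on cofilin, rose by 0.51 there (adjusted p = 0.0064 in limma), a call lost without the first siNC library (0.0543). LIMK1, the kinase that switches cofilin off, rose by 0.50 in the LAT1 series (adjusted p = 9.06e-05 in limma). CAP2, an actin-recycling protein, fell by 0.76 there (adjusted p = 0.000174 in limma), by 1.37 with siLAT1-2 and by 0.15 with siLAT1-3, and its adjusted p was 0.297 when pooled.

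Of 9 Arp2/3 subunits, which nucleate branched filaments, 0 rose and 3 fell for EZH2 and 2 fell for LAT1. The EZH2 count became 1 without the first siNC library, the second of siEZH2-1 or the first of siEZH2-2, and the LAT1 count became 1 without either siNC library or the first of siLAT1-3. Both were 0 when pooled. ACTR2 fell by 0.39 and ARPC5 by 0.17 in the EZH2 series, with adjusted p of 0.046 and 0.0477 in limma. ACTR2 lost its call without 3 of the 6 libraries (0.0826 to 0.268) and ARPC5 without each of the 6 (0.05 to 0.275). ACTR3 fell by 0.26 and ARPC2 by 0.08 in the LAT1 series, with adjusted p of 0.000634 and 0.0284 in limma. ARPC2 lost its call without 5 of the 6 libraries (0.0533 to 0.172), and ACTR3 was 0.10 with siLAT1-2 and -0.61 with siLAT1-3.

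Of the formins, which extend unbranched filaments, 2 rose and 2 fell of 10 for EZH2, and 3 rose and 1 fell of 8 for LAT1. Both EZH2 counts became 0 without the first siNC library; the higher one was 1 without any other library, and the lower one was 0 without the second siNC library. The 3 for LAT1 became 2 without any library but the first of siLAT1-3. FMNL3 rose by 0.29 and FMNL2 fell by 0.37 in the EZH2 series, with adjusted p of 0.0288 and 0.0455 in limma. FMNL3 lost its call without each of the 6 libraries (0.0565 to 0.173) and FMNL2 without 4 of them (0.064 to 0.234). FHOD1 rose by 0.33 and FMNL2 fell by 0.27 in the LAT1 series, with adjusted p of 0.00269 and 0.00312 in limma. SRF, whose site form is the CArG box in TPM4 window 1, rose by 0.20 in the EZH2 series (adjusted p = 0.0472 in limma), a call lost whichever of the 6 libraries was left out (0.0621 to 0.303). With LAT1 silenced 0 of the 3 tested genes of its list was called.

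**Figure D5:**
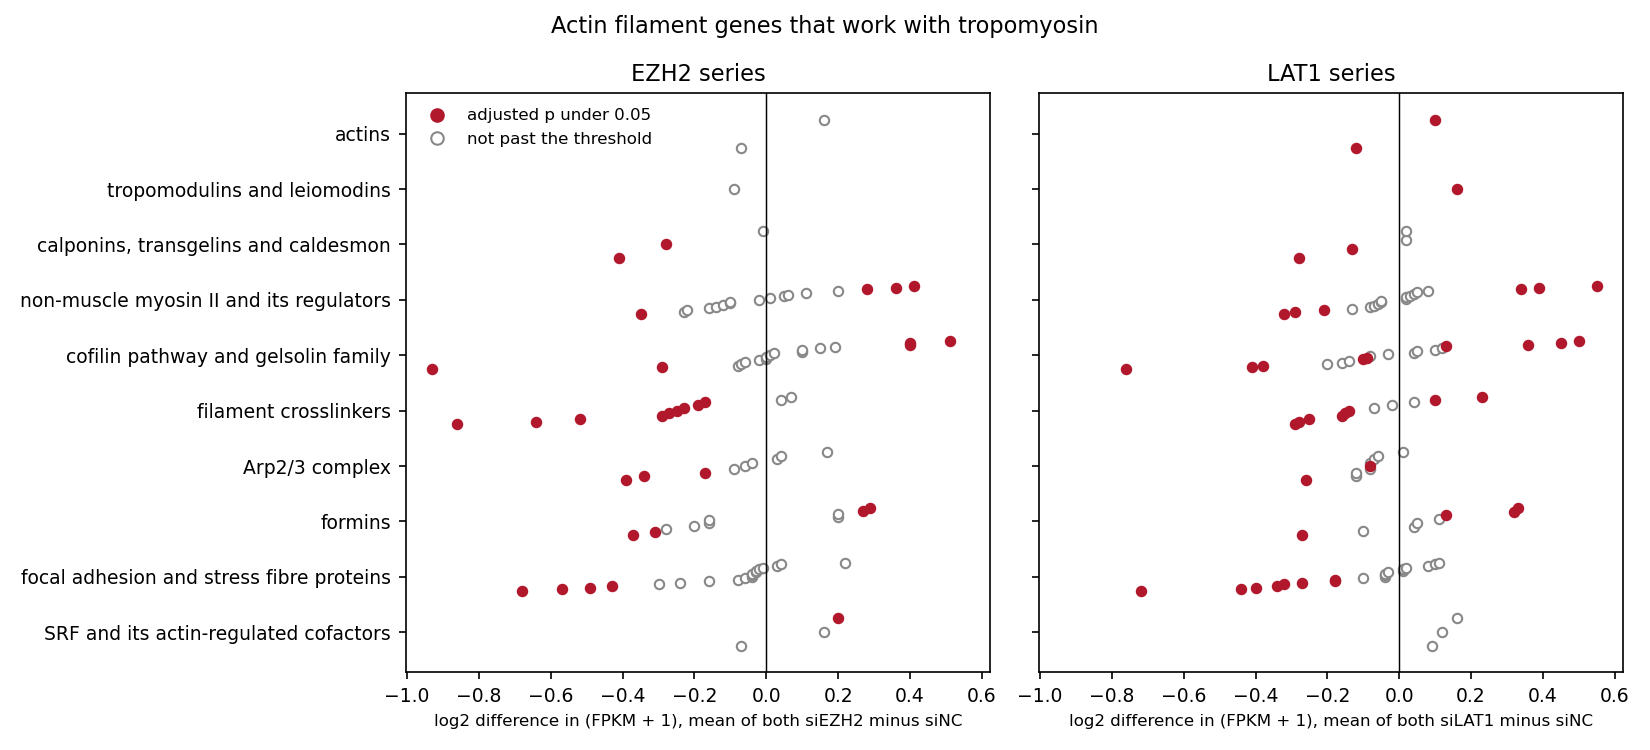
Log2 difference in FPKM + 1, mean of both siRNAs minus siNC, for the tested genes of 10 lists of actin filament proteins (1 point per gene, spread upwards within a list by value). Filled points have an adjusted p under 0.05 in limma; 9 of 11 crosslinkers are filled and below 0 in the EZH2 series, against 6 of 11 in the LAT1 series.

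Troponins, which work with tropomyosin in striated muscle, were read with 16 muscle markers. TNNT1, the slow skeletal troponin T, was the most abundant of them, named after its values were seen. It had 37.5 and 38.6 FPKM with siEZH2-1 and 39.5 and 33.9 FPKM under siEZH2-2, against 32.2 and 34.1 FPKM with siNC, so siEZH2-1 lay above siNC and siEZH2-2 overlapped it. The LAT1 table held 36.5 and 35.1 FPKM with siLAT1-2 and 36.5 and 40.3 FPKM with siLAT1-3, against 38.4 and 38.5 FPKM with siNC, so siLAT1-2 lay below siNC and siLAT1-3 overlapped it. The muscle markers that passed the minimum level, 1 for EZH2 and 4 for LAT1, were not called for the mean of both siRNAs. Taken singly, TNNC1 was -0.46 with siLAT1-2 (adjusted p = 0.00878 in limma) and -0.02 with siLAT1-3. TNNT3 was -0.22 with siLAT1-2 and 0.31 with siLAT1-3 (adjusted p = 0.083 and 0.0315 in limma). The sum of the 16 was 34.2 to 51.4 FPKM over all libraries, most of it TNNT1.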

How the data were processed

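RNA libraries of KYSE510 cells, 12 in 2 series, were read from 1 table per series as the authors deposited them. The files name no unit; the values were taken as FPKM made by the authors, because columns summed to 245634 to 275399 and low values of short genes rose in steps. Steps of 1 read gave the depth, with 87.0% to 95.1% of the step values whole within 0.12 reads; it is an estimate. Per the submitters' processing notes, STAR, Bowtie, Bowtie2, SEACR, Picard and Trim Galore were used with hg19 and hg38, without roles. The counting program, gene lengths and strand setting are not given in the sources used here. The LAT1 siNC titles repeat a replicate number that the descriptions tell apart, and the descriptions were followed. CUT&Tag of EZH2 (2 samples, KYSE510 and FADU) was not analysed here.

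Each table was fitted alone with limma 3.58.1 in R 4.3.3 (trend) on log2(FPKM + 1), 1 group per siRNA and siNC, for genes averaging at least 1 FPKM. A fold change on this scale understates the change of low genes. P-values are two-sided, adjusted by Benjamini-Hochberg over all genes tested, with a threshold of 0.05. The fit was tested on simulated data. With 4 against 2 libraries, exact permutation cannot go under 0.0667, so no such test is given. Named were the members, related loci from 1 FPKM, the targets, the highest and lowest called gene of each list, the genes most like each member and the nearest coding neighbours. The members and lists were chosen with earlier results of these data known. Alternatives were quantile normalization, a pseudocount of 0.1 FPKM, no filter or one of 5 FPKM, pooling both siRNAs, a replicate block, and leaving out each library; applying them to partner genes was decided after seeing the data.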

Additional observations from a re-analysis of the deposited data

Results flagged for a closer look

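TPM1 differed between the siRNAs to EZH2: siEZH2-2 minus siEZH2-1 was -0.64 on the log2(FPKM + 1) scale, with an adjusted p of 0.00227 in limma over all genes tested. It stood out because the libraries of the 2 siRNAs to the same target lay on opposite sides of the same siNC libraries, in 2 of 2 libraries each. The difference between the siRNAs was called for 16.3% of all genes. The fall with siEZH2-2 against siNC lost its call whichever of the 6 libraries was left out (adjusted p of 0.0654 to 0.181 in limma).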

How the results depend on the processing

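TPM4 minus siNC was 1.94 after quantile normalization and 2.00 with a pseudocount of 0.1 FPKM in the EZH2 series, and 1.67 with that pseudocount in the LAT1 series. Leaving out each library gave 1.58 to 1.66 in the LAT1 series. TPM3 in the LAT1 series was 0.11 with an adjusted p of 0.0711 when both siRNAs were pooled, and 0.10 to 0.13 with adjusted p of 0.0122 to 0.0883 when each library was left out. With the replicate block it was 0.11 (adjusted p = 0.0172). TPM1 with siEZH2-2 lost its call without a filter (adjusted p = 0.0726) and under the replicate block (0.0869); the TPM1 difference between siRNAs kept its call under the block (0.0122). Deviations of same-numbered libraries correlated at 0.355 between siEZH2-1 and siNC, -0.353 between siEZH2-1 and siEZH2-2, and -0.339 between siEZH2-2 and siNC. In the LAT1 series they correlated at 0.018 to 0.083. The numbers as labelled, which the block used, thus do not pair the samples alike in all groups. Whether the EZH2 series libraries share an effect under another numbering was not tested. The block gave 2007 calls in place of 3156 for siEZH2-1 and 1021 in place of 1883 for the difference between siEZH2 siRNAs. Pooling both siRNAs gave 1153 calls in place of 3481 in the EZH2 series and 1309 in place of 4032 in the LAT1 series. ACTG1 in the LAT1 series turned to 0.037 under quantile normalization. Of 64 alternative values of tested member differences that were called, 42 kept direction and call, 22 kept the direction and lost the call, and 0 changed direction. Of 175 for differences that were not called, 0 became called and 7 changed sign. The cause of these changes was not tested. With 2 libraries a group, TPM2 near 1 FPKM is the member that depth limits most.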

Other observations

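The listed values of some genes differed widely between the siNC groups of the tables. The tables were normalized separately and may rest on different annotations, since the build and annotation behind each are not given in the sources used here, so a difference in the cells and one in the counting cannot be told apart. CNN3, calponin 3, averaged 33.9 ± 1.55 FPKM in siNC cells of the LAT1 series and 0.15 ± 0.0849 FPKM in siNC cells of the EZH2 series (SD, n = 2). TPM3P9 averaged 6.22 ± 0.0424 FPKM and 0.43 ± 0.0566 FPKM in the same groups, whereas TPM3 itself averaged 113 ± 0.658 FPKM and 89.9 ± 0.29 FPKM. Gene CNN3 and locus TPM3P9 were singled out after their values were seen.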
